A study of Arabidopsis thaliana with 10 samples.

Results

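Transcript levels of gun1gun5 seedlings that received no far-red light (gun1gun5_D) were compared with those of wild type seedlings that received none (WT_D), on 4 of the 10 arrays of the series. The members were chosen by their labels: every array of gun1gun5 and of wild type whose seedlings went into white light without far-red, with all 22746 probe sets other than the array's controls. The labels call these seedlings D-pretreated and do not say what D stands for. The series concerns far-red preconditioning, a treatment ahead of white light that is meant to prevent chloroplasts from forming, and its effect on seedling transcripts. Each array, an Affymetrix ATH1 single-colour oligonucleotide array, held total RNA from a pool of 300 whole Arabidopsis thaliana seedlings, with cotyledons, hypocotyl and primary root but no true leaves, grown at 22 °C in continuous light.

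The gun1gun5_D seedlings (2 arrays) carried mutations in both gun1 and gun5, of alleles and in a background that the labels do not name, and grew on MS medium without sucrose. The WT_D seedlings (2 arrays) were Col-0 on MS medium with 1.5% sucrose, and the label of WT_D replicate 2 also lists 5 µM norflurazon, a herbicide that blocks carotenoid synthesis. The treatment text of that array describes it, like replicate 1, as a plain wild type control and does not mention norflurazon, so the labels disagree on whether the herbicide was given. Genotype and sucrose therefore cannot be told apart in this comparison. The same genotypes after far-red, gun1gun5_FR and WT_FR (2 arrays each), were all labelled without sucrose, and so was the array of phyA-null seedlings without far-red (phyA_D, 1 array). Those 5 arrays are used below to set the values of the comparison beside ones in which the listed sucrose is the same. No label states that replicate arrays came from independent cultures, and p-values therefore reflect only the array-to-array spread, which may be technical. GUN1 and GUN5 were not on the list of named probe sets, so the mutated genes were not checked.

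Plastids signal their state to the nucleus, and gun mutants (genomes uncoupled) keep nuclear photosynthesis genes on when the plastid is damaged. GUN1 is a plastid protein of the pentatricopeptide repeat family, and GUN5 is the subunit of magnesium chelatase that binds the porphyrin on the way to chlorophyll. Norflurazon is the agent classically used to damage plastids in tests of these mutants, where wild type seedlings in bright light bleach and lose the transcripts of nuclear photosynthesis genes.

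Values are linear probe-set intensities, called values here, that the authors had scaled to a common trimmed mean of about 100 per array. Between 29% and 30.9% of values on the 4 arrays were under 16, and array medians lay between 37.6 and 40.4. Over all probe sets the gun1gun5_D arrays correlated with each other at Spearman's rho of 0.98 and the WT_D arrays at 0.981, while pairs across the groups lay between 0.966 and 0.974. The 25S rRNA control read 376.7 and 3003.8 on the gun1gun5_D arrays, against 775.5 and 314.8 on the WT_D arrays, so it differed most between replicates of gun1gun5_D. Scanner background was 99.54 and 88.06 on the gun1gun5_D arrays, against 94.39 and 108.57 on the WT_D arrays. Whether either bears on the differences below was not tested. The root markers PYK10, EXPA7 and EXPA18 and the seed oleosin OLEO3 did not pass the test, at a median log2 difference of 0.01 for the root markers.

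With limma on log2(value + 16), at an adjusted p under 0.05 over all probe sets, 584 probe sets (2.57%) differed between gun1gun5_D and WT_D. Of these, 207 (0.91%) were higher and 377 (1.66%) were lower in gun1gun5_D, and 4247 had an unadjusted p under 0.05. Changes of at least 2-fold were mostly lower ones, at 142 of 184. The smallest adjusted p was 0.00241. In 284 of the called probe sets a single gene was listed, 107 higher and 177 lower in gun1gun5_D, and genes are named from these. The 2 gun1gun5_D arrays lay on the same side of both WT_D arrays in all 584, as they did in 47.6% of all probe sets tested. The median difference over all probe sets was 0.00.

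These calls rest on a spread estimated over all 10 arrays. When limma was fitted to the 4 arrays alone it called 0 probe sets, with 3710 at an unadjusted p under 0.05. Without gun1gun5_D replicate 1 there were 4 calls, without gun1gun5_D replicate 2 there were 268, without WT_D replicate 1 there were 31, and without WT_D replicate 2, the array with norflurazon listed, there were 169. All 584 kept their direction in each of these fits. Since the 2 groups did not overlap in any of the 584, leaving out an array could not have turned a direction. Limma on the 4 arrays alone gave all 584 an unadjusted p under 0.05, on arrays that they had been called on. Of 92 called genes that are named below or carry a symbol, 2 passed the adjusted threshold without gun1gun5_D replicate 1, 37 without gun1gun5_D replicate 2, 9 without WT_D replicate 1 and 25 without WT_D replicate 2.

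**Figure D1:**
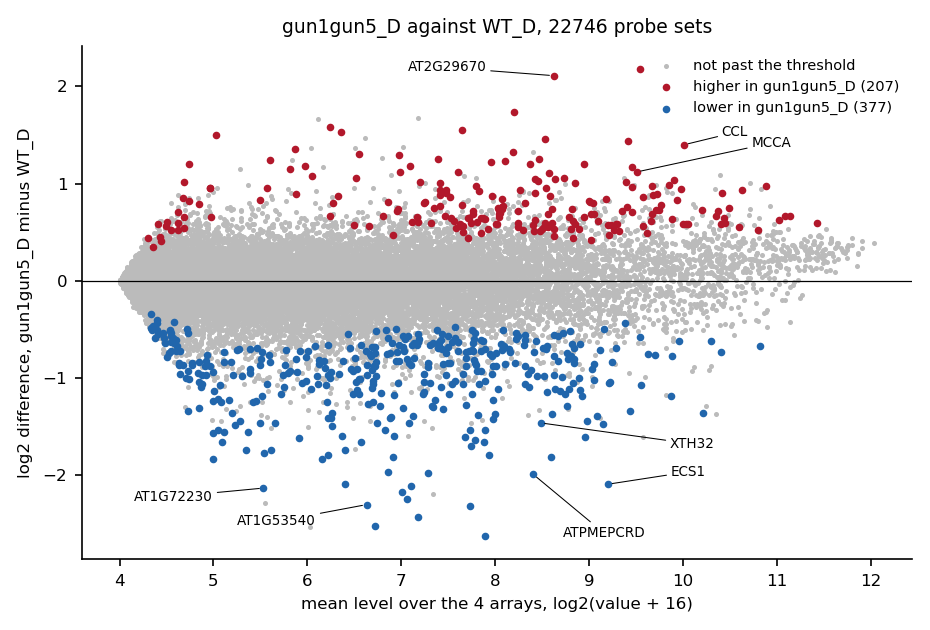
Log2 difference of gun1gun5_D minus WT_D (vertical axis) against the mean level over the 4 arrays as log2(value + 16) (horizontal axis), 1 point per probe set, red for the 207 called higher, blue for the 377 called lower and grey for the rest. Most changes of at least 2-fold lie below 0, 142 of 184.

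Among probe sets with a single listed gene, AT2G29670 had the largest rise. It read 1204.2 and 533.4 in gun1gun5_D, against 175.1 and 171.6 in WT_D, a log2 difference of 2.11 ± 0.36 (SE, n = 2 arrays per group, adjusted p = 0.0358). Both mutant arrays were well above both wild type arrays, though they differed from each other by more than the wild type arrays did. Its neighbour on chromosome 2 in the RefSeq annotation, AT2G29660, read 441.9 and 240.5 in gun1gun5_D, against 128 and 78.5 in WT_D (log2 difference 1.55 ± 0.30). The difference was there after far-red as well, at 1.65 ± 0.36 for AT2G29670 and 2.32 ± 0.30 for AT2G29660, both past the threshold.

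The other genes among the 15 largest rises lay between 1.17 and 1.58. AT4G25170 was even between replicates, at 651.8 and 549.8 in gun1gun5_D, against 231 and 186.2 in WT_D (1.46 ± 0.16). CCL, called CCR-like in RefSeq, read 2157.3 and 1278.6 in gun1gun5_D, against 691.8 and 555.9 in WT_D (1.40 ± 0.23). HIS1-3, a linker histone of the H1 family, read 316.9 and 415.3 in gun1gun5_D, against 116 and 184.4 in WT_D (1.22 ± 0.22). No array of gun1gun5_D overlapped WT_D in these genes, as in all 584 calls and in 47.6% of all probe sets. HON4, another gene that RefSeq lists as histone H1, rose too (266.5 and 286.7 in gun1gun5_D, against 180.3 and 161.4 in WT_D, a log2 difference of 0.65 ± 0.11). These were the 2 called of 10 members of the cell division list, whose median difference was -0.03. Over all probe sets 0.91% were called higher.

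AT3G03870 (1.58 ± 0.31), AT2G07140 (1.53 ± 0.20), AT5G23380 (1.30 ± 0.19), AT1G01240 (1.29 ± 0.16) and AT5G42200 (1.25 ± 0.10) also rose, as did AT3G61160, AT5G57655, AT3G16120 and AT1G19530, at 1.20, 1.20, 1.18 and 1.17. The probe set of AT2G07140 is of the type that can bind transcripts of other genes. AT2G16190 read 26.7 and 22.5 in gun1gun5_D and was under 16 on both WT_D arrays, so it was at least 1.54-fold higher. Of the 15, 12 were also called higher in gun1gun5_FR than in WT_FR.

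Genes of leucine breakdown, a mitochondrial pathway that yields substrate for respiration, rose at a pair of consecutive steps. MCCA, the biotin-carrying subunit of methylcrotonyl-CoA carboxylase, read 1170.2 and 950.2 in gun1gun5_D, against 460.4 and 496.8 in WT_D. MCCB, its other subunit, read 1109.3 and 934.8 in gun1gun5_D, against 603 and 652 in WT_D. IVD, the isovaleryl-CoA dehydrogenase that acts just before them, read 891.8 and 876.6 in gun1gun5_D, against 528.6 and 543.8 in WT_D. In all 3 genes every mutant array was above every wild type array by more than the replicates differed. The groups were likewise apart in all 584 calls and in 47.6% of all probe sets. The log2 differences were 1.12 ± 0.18 for MCCA, 0.69 ± 0.12 for MCCB and 0.71 ± 0.09 for IVD, with limma adjusted p of 0.0307, 0.0386 and 0.0208. The other 6 members of this list, which was drawn up after values had been seen, did not pass. Their differences ran between -0.44 and 0.66, the last being that of ETFQO, which hands electrons to the respiratory chain. The median of the 9 was 0.33, and over all probe sets 0.91% were called higher. On the phyA_D array MCCA, MCCB and IVD read 645.8, 791.6 and 737.1, between the 2 groups.

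Of the sugar starvation list only AKINBETA1 had a named probe set. It encodes a regulatory subunit of the energy-sensing kinase SnRK1 and read 1231.8 and 1025.8 in gun1gun5_D, against 681 and 616.1 in WT_D, and 616.6 in phyA_D. The rise of 0.78 ± 0.15 (limma adjusted p = 0.0491) lay just inside the threshold, and under quantile normalization, where it was 0.69, it did not pass. After far-red, with no sucrose listed for either genotype, the difference was 0.85 ± 0.15.

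A few further genes that rose are given for what they encode, and were chosen after their values were seen. MGL, a methionine gamma-lyase, read 503.9 and 452.9 in gun1gun5_D, against 216.8 and 228.3 in WT_D. PPDK, pyruvate orthophosphate dikinase, read 691.3 and 602.6 in gun1gun5_D, against 392.3 and 396.3 in WT_D. OSM34, an osmotin-like protein, read 985.6 and 1032.4 in gun1gun5_D, against 533.1 and 564 in WT_D. All 3 were higher on each mutant array, by 1.05, 0.69 and 0.86 in log2, where the groups were apart in all 584 calls. The RING-type ubiquitin ligase ATL8 rose by 1.05 and the transcription factor bHLH121 by 1.01.

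**Figure D2:**
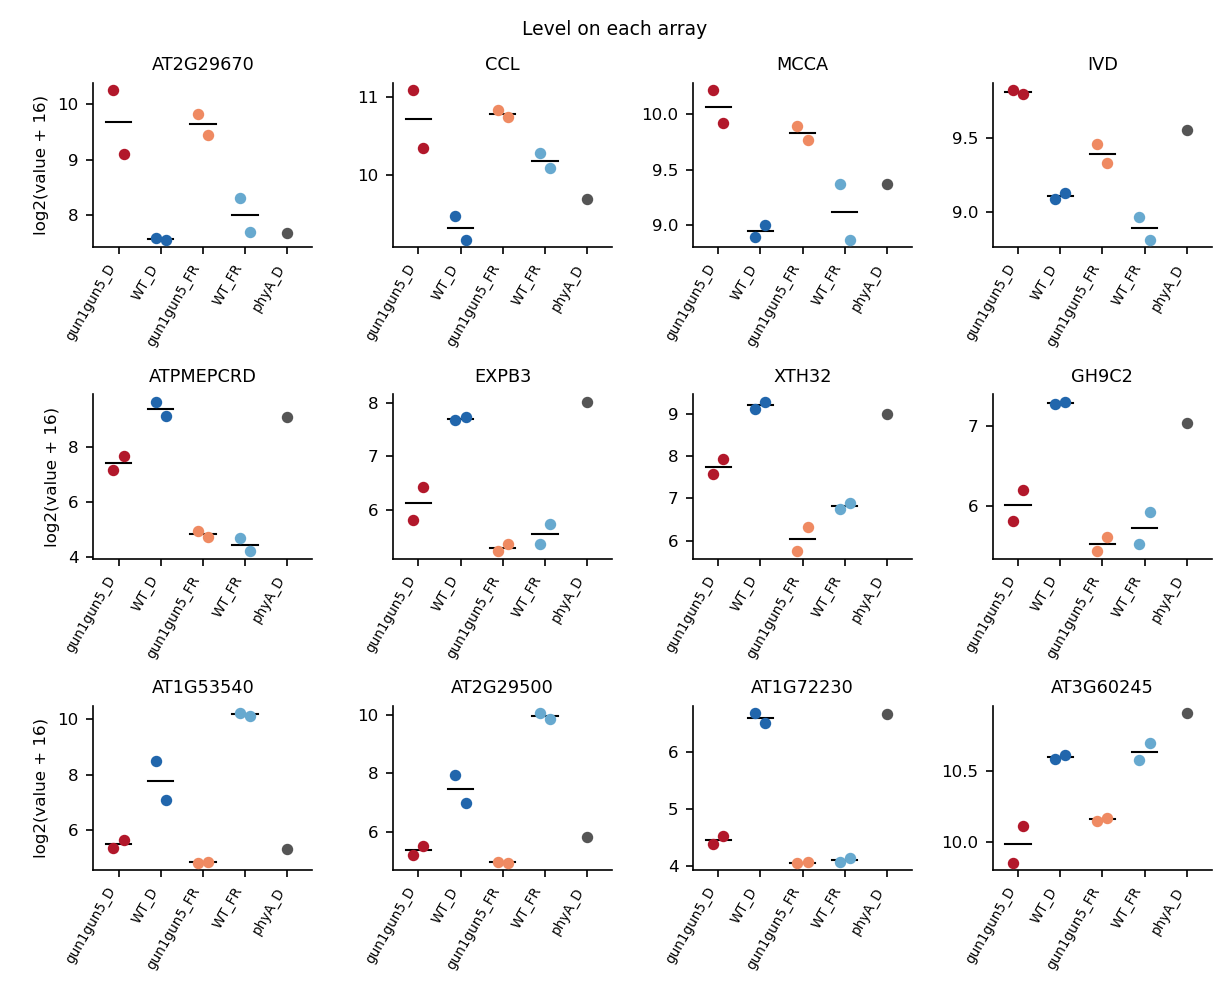
Level on each array as log2(value + 16) (vertical axis) for 12 genes, with 1 point per array, bars at group means and the groups ordered gun1gun5_D, WT_D, gun1gun5_FR, WT_FR and phyA_D. The phyA_D point lies beside WT_D for ATPMEPCRD, EXPB3, XTH32 and AT1G72230, beside gun1gun5_D for AT1G53540, and nearer to gun1gun5_D than to WT_D for AT2G29500.

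Several cell wall genes fell in gun1gun5_D, where 1.66% of all probe sets were called lower. ADPG1, a polygalacturonase that degrades pectin, is on none of the lists and was called higher (log2 difference 0.61 ± 0.12, limma adjusted p = 0.0468), though every array of both groups was under 16. It was chosen after its value was seen. ATPMEPCRD, a pectin methylesterase, which strips methyl groups from wall pectin, read 127.4 and 186.6 in gun1gun5_D, against 790.9 and 548.7 in WT_D (log2 difference -1.99 ± 0.25). PMEPCRF, of the same enzyme family, read 67.9 and 109.2 in gun1gun5_D, against 219.4 and 250.1 in WT_D (-1.29 ± 0.19). The mutant arrays were low in both genes, with no overlap, as in all 584 calls. They were the 2 called of 5 pectin enzymes, whose median was -0.55. Of 24 probe sets whose genes were listed by locus as pectate lyase-like, 3 were called lower: AT5G48900 fell by 1.40, AT1G04680 fell by 1.39, and AT1G67750, under 16 on both mutant arrays, was at least 2.04-fold lower. The other 21 did not pass, and the median of the 24 was -0.13.

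EXPB3, an expansin of the beta class that loosens walls, read 40.2 and 70.4 in gun1gun5_D, against 189.8 and 197.9 in WT_D (-1.59 ± 0.22). XTH32, which cuts and rejoins xyloglucan chains, read 175.9 and 227.5 in gun1gun5_D, against 545.5 and 610 in WT_D (-1.46 ± 0.20). The gun1gun5_D replicates were 0.62 apart in log2 for EXPB3 and 0.34 for XTH32, less than the gaps between the groups. EXPB3 and XTH32 were the 2 called of 29 expansins and xyloglucan enzymes, against 1.66% of all probe sets called lower. None was called higher, and the median was -0.16. EXPA8 had a difference of the same size as EXPB3 (-1.59 ± 0.33, adjusted p = 0.0578) but its mutant arrays, at 38.3 and 95.6, lay far apart.

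Enzymes of the GH9 family of endoglucanases, which act on cellulose, fell at GH9C2, with 40.5 and 57.7 in gun1gun5_D, against 138.4 and 141.3 in WT_D (-1.27 ± 0.18). GH9B8 (-0.80 ± 0.14) and GH9B7 (-0.67 ± 0.09) fell as well, and the other 12 of 15 did not pass, with a median of 0.00 over the family. CSLC04 and CSLC5, synthases of the xyloglucan backbone, fell by 0.66 and 0.57, and were 2 of 5. Under quantile normalization CSLC5 did not pass (limma adjusted p = 0.0542). The tubulin TUA6 read 461.2 and 495.5 in gun1gun5_D, against 772.7 and 784.6 in WT_D (-0.69 ± 0.11), 1 of 5 tubulins, with all 5 below 0 and a median of -0.41. Over all probe sets 1.66% were called lower. The pectate lyase-like, GH9, xyloglucan synthase and tubulin lists were drawn up after values had been seen, so their counts describe these data and carry no test.

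In several of these genes the phyA_D array, also without sucrose, lay near the WT_D mean. ATPMEPCRD was at 538.8 in phyA_D, PMEPCRF at 241.9, EXPB3 at 244.5, XTH32 at 496.1 and GH9C2 at 115.5. On the scale on which 1 is the gun1gun5_D mean and 0 the WT_D mean, these 5 lay between -0.20 and 0.19. CSLC04 at 0.11, AT1G67750 at 0.12 and AT1G04680 at 0.18 lay in the same range, with GH9B7 at 0.23 and AT5G48900 at 0.26. CSLC5 at 0.60 and TUA6 at 0.54 were nearer to gun1gun5_D, and GH9B8 at -0.57 was beyond WT_D.

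Small heat-shock proteins, chaperones that hold unfolded proteins, were also low in gun1gun5_D. AT1G53540 read 24.3 and 33.5 in gun1gun5_D, against 341.5 and 118.8 in WT_D. AT2G29500 read 20.7 and 29.8 in gun1gun5_D, against 227.9 and 109.1 in WT_D. AT1G52560 read 0.9 and 1.0 in gun1gun5_D, against 70 and 26.1 in WT_D. The mutant arrays were low in all 3, and of the wild type arrays replicate 2 was the lower one each time, without reaching the mutant. AT1G53540 and AT2G29500 fell by 2.30 ± 0.39 and 2.09 ± 0.29 (limma adjusted p = 0.0348 and 0.021), and AT1G52560 was at least 3.00-fold lower, since both mutant arrays were under 16. AT1G53540 differed by -1.59 when WT_D replicate 1 was left out and by -3.0 when WT_D replicate 2 was. All 8 small heat-shock probe sets were below 0, with a median of -0.91, and 3 were called lower, against 1.66% of all probe sets. The list was drawn up after values had been seen.

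Over the 8 small heat-shock probe sets, WT_D replicate 2, with norflurazon listed, was below WT_D replicate 1 by a median of 0.78 in log2. The median of their differences was -1.30 without WT_D replicate 2, with 5 called lower, and -0.57 without WT_D replicate 1, with 1 called lower. The phyA_D array read at the gun1gun5_D level for AT1G53540, at 23.6. For AT2G29500, at 40.2, and AT1G52560, at 7.9, it was above both mutant arrays. It was still nearer to gun1gun5_D than to WT_D there, at positions of 0.78 and 0.73. The median position over the 8 probe sets was 0.98. The part of sucrose and of norflurazon in this difference was not tested.

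**Figure D3:**
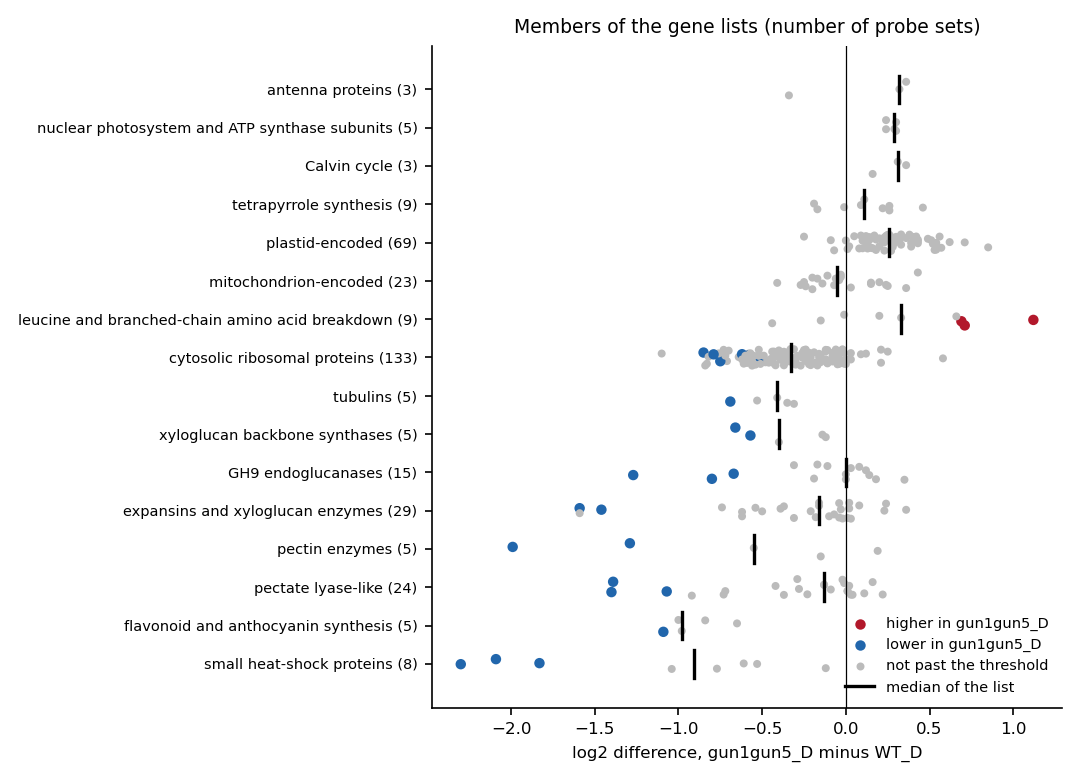
Log2 difference of gun1gun5_D minus WT_D (horizontal axis) for the members of 16 gene lists (rows, with the number of probe sets), red where called higher, blue where called lower, with a black bar at each list's median. Plastid-encoded and photosynthesis genes lie mostly above 0 with none called, cytosolic ribosomal proteins mostly below 0 with 6 called, and small heat-shock proteins all below 0 with 3 called.

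Nuclear photosynthesis genes are the class of transcripts by which gun mutants were first recognised, but few of them had a named probe set. Those with one were 3 of 20 listed antenna genes, 5 of 28 photosystem and ATP synthase subunits and 3 of 17 Calvin cycle genes. None of these passed the test in gun1gun5_D against WT_D, and the other listed genes could not be read by name. Differences were above 0 in 2 of 3 antenna genes, 5 of 5 photosystem and ATP synthase subunits and 3 of 3 Calvin cycle genes, where 49.6% of all probe sets were. LHCB4.1, a minor antenna protein of photosystem II, read 3691.2 and 3960.1 in gun1gun5_D, against 2956.1 and 3165 in WT_D (log2 difference 0.32 ± 0.11, limma adjusted p = 0.177). RCA, the activase of Rubisco, read 3492 and 3677.3 in gun1gun5_D, against 2721.1 and 2875.1 in WT_D (0.36 ± 0.10, limma adjusted p = 0.118). In both genes the groups did not overlap, as in 47.6% of all probe sets, and the gap was small. The medians were 0.32 over 3 antenna genes, 0.29 over 5 photosystem and ATP synthase subunits and 0.31 over 3 Calvin cycle genes. Quantile normalization, which makes the distributions of all arrays alike, brought these medians to 0.02, 0.01 and 0.04.

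In the few photosynthesis genes with a named probe set, the array with norflurazon listed was not low beside WT_D replicate 1. The other listed photosynthesis genes could not be read by name, and whether norflurazon was given was not tested. WT_D replicate 2 was above WT_D replicate 1 by a median of 0.12 over the antenna genes, 0.12 over the photosystem and ATP synthase subunits and 0.08 over the Calvin cycle genes. LHCB4.1 was at 3165 in WT_D replicate 2, against 2956.1 in WT_D replicate 1. LYC, the lycopene cyclase of carotenoid synthesis, was at 550.5 in WT_D replicate 2 and 509.6 in WT_D replicate 1. The largest gaps between these 2 arrays lay in genes of other kinds: AT2G43620, AT2G21640, AT5G62360, AT1G53540 and UGT76C2 were lower by 1.77, 1.71, 1.52, 1.41 and 1.36 in log2 in WT_D replicate 2, and AT1G09500, LSM3B, XIJ, AT2G16660 and AT5G25340 were higher by 1.30, 1.15, 1.14, 1.12 and 1.10. In all, 98 probe sets were at least 2-fold apart between the WT_D arrays, 74 of them lower in replicate 2, and 104 between the gun1gun5_D arrays, whose labels list no such difference.

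In chlorophyll synthesis CHLM, the methyltransferase that follows magnesium chelatase, read 1791.5 and 1643.8 in gun1gun5_D, against 1183 and 1298.6 in WT_D (0.46 ± 0.10, limma adjusted p = 0.0654), and 1253.1 in phyA_D. The groups did not overlap, as in 47.6% of all probe sets. None of the 9 tetrapyrrole genes passed, and their median was 0.11. After far-red the CHLM difference was 0.66 ± 0.10 and passed.

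Genes encoded in the plastid itself lay above 0 in 66 of 69 cases, where 49.6% of all probe sets did, with a median of 0.26 and 0 called by limma. At an unadjusted p under 0.05, 27 were higher and 1 was lower, against 8.57% higher and 10.1% lower over all probe sets. Among them atpB, of ATP synthase, read 3563.9 and 3900.8 in gun1gun5_D, against 3124.2 and 3178.8 in WT_D, and 3609.9 in phyA_D. psaB, a core protein of photosystem I, read 3314.6 and 3646.2 in gun1gun5_D, against 2550.7 and 2717.1 in WT_D, and 3229.4 in phyA_D. The phyA_D array was thus close to the mutant, and over the 69 its median position was 1.19. The list's median was 0.10 after quantile normalization, 0.18 without gun1gun5_D replicate 2 and 0.37 without gun1gun5_D replicate 1. The 23 mitochondrion-encoded probe sets had a median of -0.05 and none called.

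Cytosolic ribosomal proteins were the largest list and lay low in gun1gun5_D. Of 133 probe sets, listed by locus after values had been seen, 124 were below 0 (50.3% of all probe sets were). Called lower were 6, against 1.66% of all probe sets, and none was called higher. The median was -0.33. AT3G60245 read 907.9 and 1092.8 in gun1gun5_D, against 1522.2 and 1554.5 in WT_D (-0.62 ± 0.11). AT3G16080 read 386.7 and 371.6 in gun1gun5_D, against 608.6 and 792.5 in WT_D (-0.85 ± 0.16), and did not pass under quantile normalization (limma adjusted p = 0.0543). Neither gene overlapped between the groups, as in all 584 calls. At an unadjusted p under 0.05 by limma, 54 of the 133 were lower and 1 was higher, against 10.1% lower and 8.57% higher over all probe sets. The phyA_D array did not share the low levels: AT3G60245 was at 1907.2 and AT3G16080 at 723.3, and the median position over the 133 was -0.26. WT_D replicate 2 was above WT_D replicate 1 by a median of 0.24, and the list's median difference was -0.21 with WT_D replicate 2 left out and -0.46 with WT_D replicate 1 left out. EIF4A-2, a translation initiation helicase chosen after its value was seen, fell by 0.43.

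Flavonoid and anthocyanin genes were all below 0 in gun1gun5_D, with a median of -0.98 over 5 and 1 called lower, against 1.66% of all probe sets. The called member, AT4G14090, read 0.8 and 7.9 in gun1gun5_D, against 20.7 and 33.6 in WT_D, so it was at least 1.70-fold lower. Under quantile normalization it did not pass (limma adjusted p = 0.0554). DFR, which makes leucoanthocyanidins, read 34.4 and 46 in gun1gun5_D, against 78 and 117.5 in WT_D (-1.0 ± 0.20, limma adjusted p = 0.0505). UF3GT, which adds sugar to anthocyanidins, read 33.3 and 29.8 in gun1gun5_D, against 55.6 and 84.5 in WT_D (-0.84 ± 0.18, limma adjusted p = 0.0593). The groups were apart in all 3, as in 47.6% of all probe sets, with DFR and UF3GT just outside the threshold. The phyA_D array was on the WT_D side, at 23.5, 102.3 and 82.8. Between the WT_D arrays the 5 genes were higher in replicate 2 by a median of 0.43.

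Of the other genes among the 15 largest falls, AT2G04050 and AT1G72230 shared the smallest adjusted p. AT2G04050 read 50.6 and 40.3 in gun1gun5_D, against 277.1 and 270.6 in WT_D (-2.24 ± 0.12), and was as far apart after far-red (-2.08 ± 0.12). AT1G72230 was under 16 on both gun1gun5_D arrays, at 5.1 and 7.2, against 86.7 and 75.2 in WT_D, at least 5.06-fold lower. ECS1 read 179.5 and 400.3 in gun1gun5_D, against 1354.1 and 1064.5 in WT_D (-2.09 ± 0.31). All 3 separated the groups, as all 584 calls did, although ECS1 varied between the mutant arrays. DRT100, named for DNA damage repair and toleration, fell by 1.98, AT2G41730, whose probe set can bind transcripts of other genes, by 2.11, AT3G48970 by 1.96, AT2G32190 by 1.74 and AT4G32460 by 1.70. AT1G70985 was at least 3.68-fold lower and the subtilisin-like protease SBT3.5 at least 2.84-fold lower. Of the 15, 8 were also called lower in gun1gun5_FR than in WT_FR.

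Other lists held single calls, where 0.91% of all probe sets were called higher and 1.66% lower. GSTU20 was the 1 of 12 glutathione transferases that fell, at 8.6 and 21.5 in gun1gun5_D, against 60.3 and 76.1 in WT_D (-1.46 ± 0.27). Of 51 UGT glycosyltransferases UGT76B1 fell by 1.06 and UGT71C4 rose by 0.80. SAG29, also known as the sugar transporter SWEET15, was at least 1.81-fold lower, the only one called of 16 sugar transporters, and under quantile normalization it did not pass. AT2G44060, late embryogenesis abundant 26, fell by 0.54 as 1 of 12 dehydration and cold genes. No member of the defence, jacalin lectin, auxin, ethylene, redox, starch and sucrose, carotenoid, seed oil or seed protein lists was called. COR27, a cold and light regulated gene, stood at 232.9 and 44.6 in gun1gun5_D, against 28.7 and 17.6 in WT_D (1.66 ± 0.55, limma adjusted p = 0.167), and its mutant arrays differed too much for a call.

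Setting the same genotypes beside each other after far-red, where no label lists sucrose, 2248 probe sets (9.88%) were called between gun1gun5_FR and WT_FR, 4.19% higher and 5.69% lower. This contrast shares no array with the one without far-red, though both use the same estimate of spread. Of the 584 calls without far-red, 292 were called in the same direction after it, 50% of those calls and 13% of the far-red calls. They comprised 116 that were higher and 176 that were lower in the mutant both times. Another 14 were called in opposite directions.

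The test of the difference between the contrasts called 207 probe sets (0.91%), and 57 of them were among the 584. For MGL the difference turned round: after far-red it read 283 and 274.2 in gun1gun5_FR, against 549.4 and 606.9 in WT_FR, a log2 difference of -1.01 ± 0.10, against 1.05 ± 0.10 without far-red. GH9B7 turned the other way, at 345.1 and 321 in gun1gun5_FR, against 226.9 and 254.9 in WT_FR (0.44 ± 0.09). Their groups did not overlap in either light treatment, as in 47.6% of all probe sets without far-red. OSM34 was higher without far-red alone, with 707.2 and 782.9 in gun1gun5_FR, against 728.9 and 750.9 in WT_FR. The tests of the differences gave adjusted p of 0.00881 for MGL, 0.0223 for GH9B7 and 0.036 for OSM34, by limma. For ATPMEPCRD and AT1G72230 every array of gun1gun5_FR and WT_FR was under 16, so the genotypes could not be told apart there. Most small heat-shock genes differed more after far-red, with AT2G29500 at 15.2 and 14.5 in gun1gun5_FR, against 1037.8 and 906.5 in WT_FR. Of the 8 probe sets, 7 were called lower and 1 was called higher in gun1gun5_FR than in WT_FR. The difference between the contrasts was called above 0 for 5, a larger fall after far-red, and below 0 for 1.

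**Figure D4:**
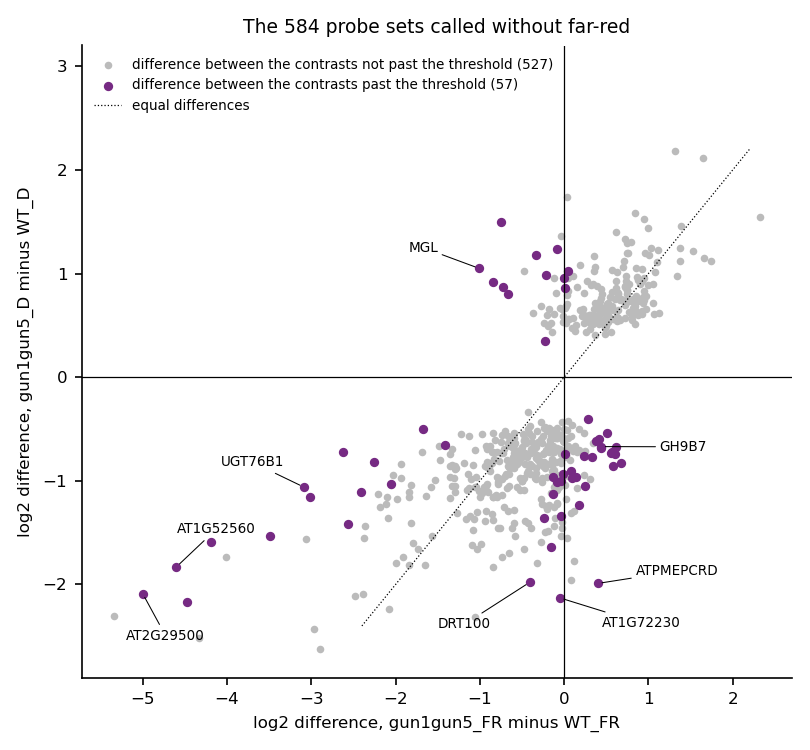
Log2 difference of gun1gun5_D minus WT_D (vertical axis) against that of gun1gun5_FR minus WT_FR (horizontal axis) for the 584 called probe sets, purple for the 57 whose differences themselves differed and grey for the other 527. The 292 called the same way in both contrasts lie at lower left and upper right, the small heat-shock genes AT2G29500 and AT1G52560 lie far to the left, and MGL and GH9B7 have opposite signs on the axes.

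The phyA_D array had no replicate and gives no test, but it offers a value without far-red and without sucrose in seedlings labelled with neither gun mutation. Of the 584 called probe sets, it lay on the WT_D side of the midpoint between the groups in 498 (85.3%), 179 of the 207 that rose and 319 of the 377 that fell. The same share over all probe sets was not counted, so the 85.3% has no background beside it. The part of sucrose was not tested. Its median position was 0.18, on the scale on which 1 is the gun1gun5_D mean and 0 the WT_D mean. For 13 of the 15 largest rises and 10 of the 15 largest falls it was nearer to WT_D. The exceptions among the falls were AT1G53540, AT2G29500, AT1G52560, AT2G41730 and AT2G32190, and among the rises AT2G29660 and HIS1-3. phyA seedlings lack the far-red photoreceptor, and what that does to these values was not tested.

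**Figure D5:**
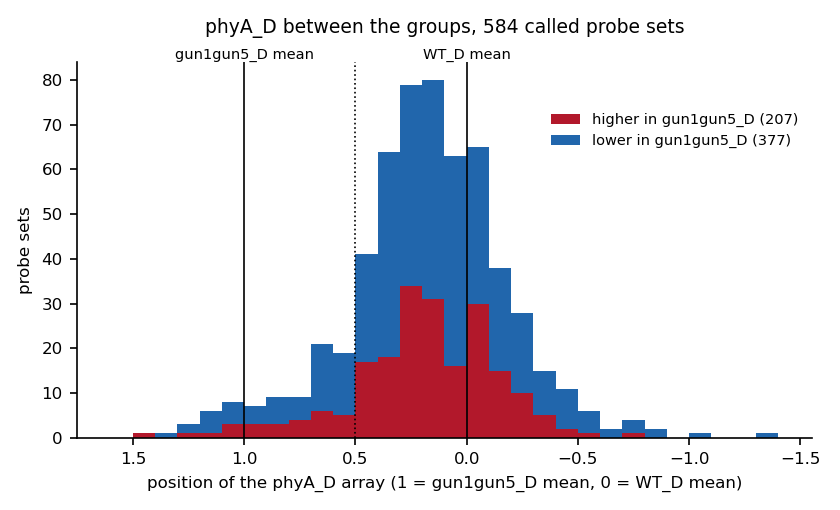
Number of called probe sets (vertical axis) by the position of the phyA_D array between the group means (horizontal axis, 1 for the gun1gun5_D mean and 0 for the WT_D mean), stacked for those higher (red) and lower (blue) in gun1gun5_D, with a dotted line at the midpoint. Most of the probe sets, 498 of 584, lie on the WT_D side of the midpoint, and the share over all probe sets was not counted.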

How the data were processed

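Expression was measured on Affymetrix ATH1 arrays. The deposited values are linear intensities per probe set, which the authors scaled to a trimmed mean of 100.008 to 100.01 per array, as the values show. The summarisation software is not given in the sources used here. Of 22810 probe sets, 64 controls were left out. The platform table listed 1 gene for 13513, several for 503 and none for 8730. Of the 13513, 13436 were found in RefSeq (TAIR10.1) by gene ID, used for names only, and 77 kept the platform symbol.

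The limma model (version 3.58.1, R 4.3.3) took log2(value + 16) of all 10 arrays with 6 group means, with a variance trend (4 residual and 3.301 prior degrees of freedom). Tests were two-sided, with Benjamini-Hochberg adjustment over 22746 probe sets in each of 3 contrasts and a threshold of 0.05. The fit was also run on simulated data with independent noise, whose outcome is not given here. Such data cannot show whether the replicate arrays were independent. Errors are model standard errors. Folds are ratios of values with 16 added and run small at low signal. Where every array of 1 group was under 16, the fold is a bound, the other group's mean over 16. The number of arrays limits the precision.

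The groups, contrasts and lists were chosen with earlier results of these data known. Several lists were drawn up or trimmed after the values of this comparison had been seen, and they are described by counts and medians only. Named genes are the 15 largest rises and 15 largest falls among called single-gene probe sets, from each list up to 4 called members with the largest differences (the 2 with the highest mean value where none was called), and the 5 highest and 5 lowest in WT_D replicate 2 relative to replicate 1. Others are marked. Same-numbered arrays deviated together at correlations of 0.051 to 0.137, 0.082 for gun1gun5_D and WT_D, so the numbers were not taken as pairs. Alternatives were pseudocounts of 1 and 64, quantile normalization, filters on low values, no trend, a fit limited to the groups in question, a block for replicate number, a minimum of 2-fold, and each array left out.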

Additional observations from a re-analysis of the deposited data

Results flagged for a closer look

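Differences here are on the log2(value + 16) scale. MGL and OSM34, chosen after their values were seen, passed limma's test of the difference between the contrasts and are described above. By the same test, the genotype difference without far-red differed from that after far-red for 7 genes named by rule. For 4 of them a group lay under 16 on every array, so the sizes depend on the pseudocount and are no measure of the fold. ATPMEPCRD, under 16 on all arrays after far-red, differed by -2.38 ± 0.35 (SE, limma adjusted p = 0.0354). With a pseudocount of 1 ATPMEPCRD differed by -3.26 and did not pass, and with 64 by -1.86. AT1G72230, under 16 after far-red and in gun1gun5_D, differed by -2.08 ± 0.17, with -3.16 at a pseudocount of 1 and -1.03 at 64. AT1G52560, under 16 on every mutant array, differed by 2.78 ± 0.42, with 3.24 and no call at a pseudocount of 1 and 2.06 at 64. AT2G29500, under 16 in gun1gun5_FR, differed by 2.91 ± 0.40, with 3.32 at a pseudocount of 1 and 2.38 at 64.

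The other genes were above 16 on every array of the groups compared. DRT100 differed by -1.57 ± 0.25, being lower in gun1gun5_D than in WT_D with no called difference after far-red, and did not pass at a pseudocount of 1. GH9B7 differed by -1.11 ± 0.13, being lower in gun1gun5_D than in WT_D and higher in gun1gun5_FR than in WT_FR. UGT76B1 differed by 2.03 ± 0.21 and was low in the mutant both times, at 30.7 and 30 in gun1gun5_FR, against 359.3 and 401.5 in WT_FR. Since WT_D alone lists sucrose, far-red and medium cannot be told apart in these differences.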

How the results depend on the processing

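The 584 calls between gun1gun5_D and WT_D became 1255 with a filter at the 40th percentile of mean level and 1189 at the 60th, where fewer probe sets enter the adjustment, and 184 with a 2-fold minimum. The share of calls that were higher was 35.4% of all calls, 44.1% and 48.9% under the filters and 22.8% at 2-fold. A fit of the 4 arrays alone called 0, with 3710 at an unadjusted p under 0.05 by limma, and leaving out an array gave 4 to 268. Pseudocounts, quantile normalization and no trend gave between 463 and 694. After far-red the 2248 calls became 577 with a 2-fold minimum and 510 to 1684 with an array left out. The 207 calls of the difference between the contrasts became 385 and 312 under the filters and 0 to 145 with an array left out, with 2301 and 2386 at an unadjusted p under 0.05 by limma in the fits that called 0, those without gun1gun5_FR replicate 1 or 2. With the replicate number as a block there were 703, 2425 and 133 calls in the 3 contrasts. All 584 calls kept their direction under every alternative that tested them, and no followed gene reversed. With the 2 groups apart in all 584, another pseudocount, a filter or an array left out could not have turned a direction. Of 92 followed genes, 80 to 85 passed with another pseudocount, quantile normalization or the block. The cause of these movements was not tested. That the photosynthesis genes missed the threshold does not show that they did not differ.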

Other observations

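Several called genes that no list held encode parts of respiration, hormone response or patterning, and were chosen after their values were seen. IDH-V, a subunit of the mitochondrial isocitrate dehydrogenase, read 329.9 and 308.3 in gun1gun5_D, against 465.4 and 494.8 in WT_D, and 453.5 in phyA_D. FRO1, a subunit of respiratory complex I, read 306.1 and 348.2 in gun1gun5_D, against 497.8 and 650 in WT_D. NDB2, an alternative NADH dehydrogenase, read 33.8 and 34.2 in gun1gun5_D, against 70.9 and 62.5 in WT_D. These 3 fell by 0.57, 0.77 and 0.72 in log2 while the mitochondrion-encoded genes had a median of -0.05. After far-red the NDB2 difference was -1.69 and called, and those of IDH-V and FRO1 were -0.25 and -0.44 and not called.

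WAG2, a kinase that acts on auxin transporters, read 5.7 on both gun1gun5_D arrays, against 28.4 and 24.5 in WT_D, and 22.3 in phyA_D. JKD, a zinc finger factor of root patterning, read 5.7 and 7.4 in gun1gun5_D, against 55.9 and 38.8 in WT_D. ARR15, a response regulator of cytokinin signalling, was under 16 on every array of both groups. The calreticulin CRT1b, a chaperone of the endoplasmic reticulum, read 138.8 and 190.9 in gun1gun5_D, against 342.3 and 320.8 in WT_D (log2 difference -0.96 ± 0.14), and 326.4 in phyA_D. For WAG2, JKD and CRT1b the mutant arrays stood apart from the wild type arrays, as in all 584 calls and in 47.6% of all probe sets. For WAG2 and CRT1b the phyA_D array was on the WT_D side, as it was in 85.3% of the 584 calls.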
